A study of Mus musculus with 4 samples.

Results

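The Bcl2 family genes encode proteins that hold back or trigger cell death at the mitochondrion. Their transcripts were examined in blood-forming (hematopoietic) stem cells, HSCs, that had been sorted from the bone marrow of mice, with 10 members named by symbol, namely Bcl2, Bcl2l1, Bcl2l2, Mcl1, Bax, Bak1, Bid, Bad, Bcl2l11 and Pmaip1. Of these, 9 were found by exact symbol among the 23450 genes listed for each library, 4 of them survival members and 5 death members. Bak1 was not analysed here. The long-term HSCs (LT-HSC) had the surface phenotype CD48-, CD150+, CD34- and CD9high, where CD9 is a tetraspanin. The short-term HSCs (ST-HSC) were CD48-, CD150+ and CD9low, and their label states nothing on CD34. There were 2 libraries per group, each made by RNA sequencing of amplified cDNA from 2000 cells. The labels give no strain, sex, age or treatment. They do not say whether the 2 libraries of a group are from different mice, so the spread behind each p-value may be technical.

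Survival members of the family (Bcl2, BCL-xL from Bcl2l1, BCL-w from Bcl2l2, and MCL-1) bind and restrain the death members. The effectors BAX and BAK open the outer mitochondrial membrane, after which cytochrome c escapes and caspases are activated. The BH3-only members (BID, BAD, BIM from Bcl2l11, and NOXA from Pmaip1) sense stress or loss of growth factors and either block the survival members or switch on the effectors. MCL-1 is known to be required for the survival of mouse HSCs, and BIM for the death of blood cells deprived of cytokines.

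What the members share is the BH3 region, the short helix through which death members fit into a groove of the survival members. The 8 stretches below are shown because this region is what survival and death members have in common. Each holds 14 codons of the GENCODE M21 transcript with the longest coding sequence, 5′ to 3′, with the first codon and the last 2 codons of the 6-codon core in capitals.
Bcl2: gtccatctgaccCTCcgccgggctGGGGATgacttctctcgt
Bcl2l1: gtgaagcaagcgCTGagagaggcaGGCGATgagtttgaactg
Bcl2l2: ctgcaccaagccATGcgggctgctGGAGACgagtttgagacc
Mcl1: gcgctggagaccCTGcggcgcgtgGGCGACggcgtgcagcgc
Bax: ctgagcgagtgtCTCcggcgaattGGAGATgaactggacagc
Bid: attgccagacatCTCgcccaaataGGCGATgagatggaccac
Bad: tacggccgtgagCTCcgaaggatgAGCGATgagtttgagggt
Bcl2l11: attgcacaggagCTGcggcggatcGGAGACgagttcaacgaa
The stretches were located by searching each protein for leucine and, after 3 further residues, glycine and aspartate, which 6 of the 8 have. Where none was found, methionine in the first place (Bcl2l2) or serine in place of glycine (Bad) was allowed. The residues encoded by the capitals were thus set by the search and are not a finding. On GRCm38, which is not the mm9 build of the deposited data, they lie in coding exons of those transcripts, with Bcl2 in exon 1 at chr1:106712572-106712613 (-), Bcl2l1 in exon 2 at chr2:152829694-152829735 (-), Bcl2l2 in exon 3 at chr14:54884505-54884546 (+), Mcl1 in exon 1 at chr3:95659424-95659465 (+), Bax in exon 3 at chr7:45465994-45466035 (-), Bid in exon 4 at chr6:120897286-120897327 (-), Bad in exon 3 at chr19:6950780-6950821 (+) and Bcl2l11 in exon 3 at chr2:128147138-128147179 (+). No sequence of Pmaip1 is shown.

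Depth was similar across libraries, at 13077365 and 16156021 reads in LT-HSC and 15042787 and 14835689 reads in ST-HSC as implied by the values. Levels are given as CPM, a rate of reads scaled by the library total, and the lowest value of a library stands for at most 1 read. All 9 HSC markers with a row (of 10 listed, among them Mecom, Hlf and Procr) lay above that value in every library, with summed levels of 4196 and 4265 CPM in LT-HSC, against 2952 and 3201 CPM in ST-HSC. The T cell markers Cd3d, Cd3e and Il7r, the B cell marker Pax5 and the endothelial marker Plvap were at the lowest value in all 4 libraries, while other genes of those lists were not. Cd79b was at 209 and 130 CPM in LT-HSC, against 145 and 91.8 CPM in ST-HSC, and Vwf at 304 and 380 CPM in LT-HSC, against 45.4 and 9.23 CPM in ST-HSC. Cd48, whose protein both gates exclude, had 3 reads in each LT-HSC library, against 248 and 576 reads in the ST-HSC libraries.

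The comparison asked how survival and death members differ between LT-HSC and ST-HSC. A single member stood far apart. Bcl2l11, which encodes the BH3-only killer BIM, stood at 0.459 and 2.66 CPM in the LT-HSC libraries (6 and 43 reads), against 76.5 and 65.8 CPM in the ST-HSC libraries (1150 and 977 reads). Both LT-HSC libraries lay far below both ST-HSC libraries, with little spread between the ST-HSC libraries. The mean was 1.56 ± 1.56 CPM for LT-HSC and 71.2 ± 7.52 CPM for ST-HSC (SD over 2 libraries), a ratio of 0.0219. The log2 fold change of Bcl2l11 was -4.96 ± 0.98 (SE), on the log2(CPM + 1) scale and LT-HSC minus ST-HSC as for all fold changes here. It did not pass over all genes (limma adjusted p = 0.718, Benjamini-Hochberg). Genes needed 1 CPM in 2 libraries to be tested, which 8 of the 9 members reached, and Bcl2l11 reached it in ST-HSC 1, ST-HSC 2 and LT-HSC 2.

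None of the 12608 genes tested passed at an adjusted p under 0.05, that is 0% in either direction, so the fold changes here are values, not calls. At an unadjusted p under 0.05 limma gave 820 genes (6.5%), 452 of them lower in LT-HSC (3.59%), and 1 of the 8 tested members, Bcl2l11, was among them. With limma-voom, fitted to reads, 0 genes passed and 595 did so unadjusted. Bcl2l11 had the 35th smallest p and the 14th lowest log2 fold change of the 12608 genes. Groups did not overlap for 16.1% of all tested genes with LT-HSC above and for 17.5% with LT-HSC below. Of the 8 tested members, 2 lay above, Bcl2l2 and Mcl1, and 1 below, Bcl2l11.

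**Figure D1:**
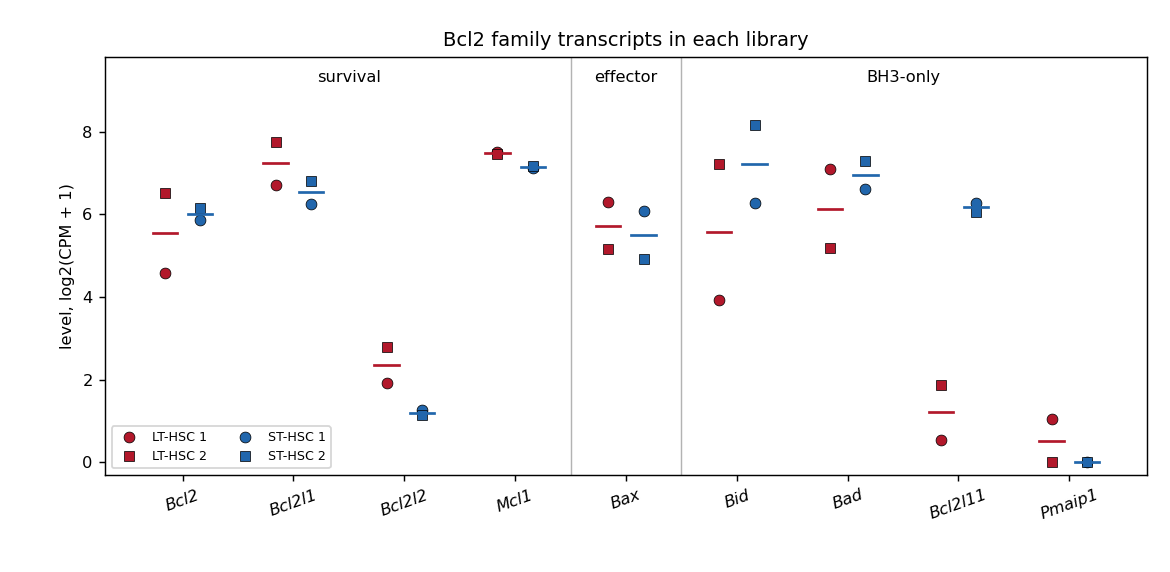
Level of each member with a row as log2(CPM + 1) in each library. Red stands for LT-HSC and blue for ST-HSC, circles for libraries numbered 1, squares for those numbered 2, and bars for group means. Bcl2l11 is the member whose groups lie farthest apart, at 0.459 and 2.66 CPM in LT-HSC, against 76.5 and 65.8 CPM in ST-HSC.

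Among the survival members, 3 of 4 had a positive log2 fold change, and none passed. Mcl1 varied little within each group, at 181 and 175 CPM in LT-HSC, against 138 and 144 CPM in ST-HSC. Both LT-HSC libraries were above both ST-HSC libraries, and the log2 fold change was 0.34 ± 0.25 (SE; limma adjusted p = 0.881). Bcl2l1, whose product BCL-xL is known for its role in red cell precursors and platelets, was at 104 and 214 CPM in LT-HSC, against 75.0 and 112 CPM in ST-HSC. Its groups overlapped, since LT-HSC 1 lay below ST-HSC 2, and the log2 fold change was 0.70 ± 0.47 (SE; limma adjusted p = 0.870). It was 0.19 without LT-HSC 2, 0.42 without ST-HSC 1 and 1.21 without LT-HSC 1. Bcl2l2, which encodes BCL-w, was sparse in every library, at 2.75 and 5.94 CPM in LT-HSC, against 1.40 and 1.21 CPM in ST-HSC. Both LT-HSC libraries were above both ST-HSC libraries, on 36 and 96 reads in LT-HSC and 21 and 18 reads in ST-HSC (log2 fold change 1.15 ± 1.0 SE; limma adjusted p = 0.921).

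Bcl2, the founding member of the family, was the survival member with a negative log2 fold change. It was at 22.8 and 91.0 CPM in LT-HSC, against 57.5 and 70.5 CPM in ST-HSC. The LT-HSC libraries lay on either side of both ST-HSC libraries and differed from each other 3.99-fold, so the log2 fold change of -0.47 ± 0.75 (SE) is within their spread. It was 0.51 without LT-HSC 1.

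The effector Bax was at 77.6 and 34.7 CPM in LT-HSC, against 66.9 and 29.2 CPM in ST-HSC. In both groups the library numbered 1 was higher than the library numbered 2, with ratios of 2.23 in LT-HSC and 2.29 in ST-HSC. Between libraries of the same number the log2 differences were 0.21 and 0.24, LT-HSC minus ST-HSC. Nothing in the labels ties the numbers to a shared animal or day. The log2 fold change of Bax was 0.23 ± 0.68 (SE), and it turned negative without LT-HSC 1 (-0.34) or without ST-HSC 2 (-0.36).

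The other tested BH3-only members, Bid and Bad, had negative log2 fold changes that lay within a wide spread. Bid, which links death receptors to the mitochondrion once caspase-8 cuts it, was at 14.3 and 147 CPM in LT-HSC, against 76.7 and 284 CPM in ST-HSC. Both groups spanned a wide range and overlapped, with LT-HSC 2 10.3-fold above LT-HSC 1 and ST-HSC 2 3.71-fold above ST-HSC 1. The log2 fold change was -1.64 ± 1.24 (SE; limma adjusted p = 0.896), and -0.0061 without LT-HSC 1. Between libraries of the same number the log2 differences of Bid were -2.35 and -0.94, LT-HSC minus ST-HSC. With the replicate number as a block its SE was 0.50 (limma unadjusted p = 0.022, adjusted p = 0.697), so its spread depends on whether the numbers mark pairs. Bad, whose product is held inactive by growth factor signals through phosphorylation, was at 135 and 35.1 CPM in LT-HSC, against 96.6 and 155 CPM in ST-HSC. LT-HSC 1 lay between the ST-HSC libraries and LT-HSC 2 below both, so the groups overlapped. Its log2 fold change was -0.82 ± 0.72 (SE; limma adjusted p = 0.926), and 0.14 without LT-HSC 2. The same-number differences of Bad were 0.48 and -2.11.

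Pmaip1, the NOXA gene and a target of p53, was near absent from these libraries. It had 14 reads in LT-HSC 1 (1.07 CPM) and at most 1 read in LT-HSC 2, ST-HSC 1 and ST-HSC 2. It therefore did not reach 1 CPM in 2 libraries and was not tested. In GENCODE M21, Bcl2, Bid and Bad overlap genes on the opposite strand (D630008O14Rik, Bcl2l13 with Gm17812, and Gpr137), and Bcl2, Bcl2l2, Bax and Bid overlap other gene models on their own strand. Whether the counting used strand is not given in the sources used here, so reads of these 5 members may in part be those of their neighbours, while Bcl2l1, Mcl1, Bcl2l11 and Pmaip1 overlap no other gene there.

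**Figure D2:**
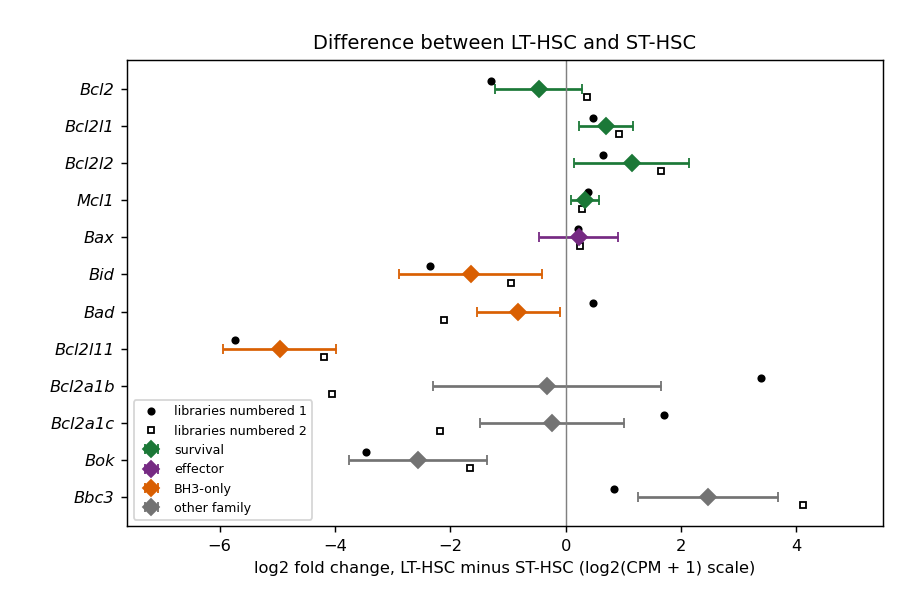
Log2 fold change, LT-HSC minus ST-HSC, of the 8 tested members and 4 further family genes (diamonds, bars are the SE from limma), with the difference between libraries numbered 1 (black circles) and numbered 2 (open squares). For Bcl2l11 both differences are far below 0, at -5.73 and -4.19, while Bcl2, Bad, Bcl2a1b and Bcl2a1c have differences of opposite sign.

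Survival and death members were then set against each other within each library, where gene length does not enter a difference between groups. The mean log2(CPM + 1) level of the 4 survival members was 5.18 and 6.13 in LT-HSC and 5.12 and 5.32 in ST-HSC. The mean of the 5 death members was 3.78 and 3.88 in LT-HSC and 5.05 and 5.28 in ST-HSC. Survival minus death was thus 1.39 and 2.25 in LT-HSC and 0.074 and 0.040 in ST-HSC on the log2 scale. The LT-HSC libraries lay above the ST-HSC libraries, with a mean balance of 1.82 ± 0.60 in LT-HSC and 0.057 ± 0.024 in ST-HSC (SD, n = 2 each) and a difference of 1.76. No test was run on this score over chosen genes.

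Much of that difference came from Bcl2l11. Without it the balance was 0.59 and 1.75 in LT-HSC and 0.38 and 0.23 in ST-HSC, a difference of 0.86. With Pmaip1 also left out it was -0.60 and 0.28 in LT-HSC and -1.20 and -1.46 in ST-HSC, a difference of 1.18. The groups did not overlap in any of these versions. None includes the further family genes given below, of which Bbc3 and Bmf were higher in both LT-HSC libraries and Bok lower. LT-HSC 1 and ST-HSC 1 were closest without Bcl2l11 alone, 0.59 against 0.38, while the LT-HSC libraries then differed by more than that from each other. By counts, the median log2 fold change was 0.52 over the 4 survival members and -1.23 over the 4 tested death members, with 3 of 4 and 1 of 4 positive. Leaving out LT-HSC 1 gave a survival median of 0.86 and leaving out LT-HSC 2 one of 0.28, and the death median was -0.59 without ST-HSC 2 and -1.87 without ST-HSC 1. Over all 12608 genes the median was -0.010, and 49.2% were positive.

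**Figure D3:**
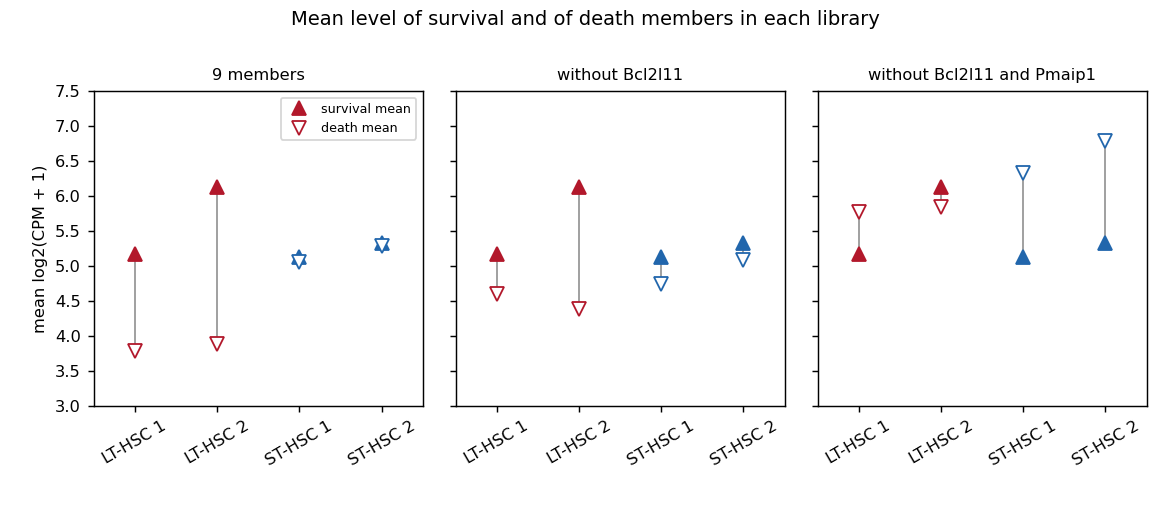
Mean log2(CPM + 1) level of survival members (filled triangles) and death members (open triangles) in each library, with red for LT-HSC, blue for ST-HSC and a line joining both means, for all 9 members, without Bcl2l11, and without Bcl2l11 and Pmaip1. With all 9 members the survival mean lies 1.39 and 2.25 above the death mean in LT-HSC and 0.074 and 0.040 above it in ST-HSC.

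Levels of different members can be compared only per length. Per kilobase of exon in GENCODE M21, Bax (64.8 ± 35.0 CPM per kb), Mcl1 (52.1 ± 1.25), Bcl2l1 (40.9 ± 19.9), Bid (36.9 ± 43.0) and Bad (35.5 ± 29.5) led in LT-HSC (SD, n = 2 each), and neighbours in this order overlapped. Bcl2 followed at 6.21 ± 5.27, Bcl2l2 at 1.07 ± 0.55 and Bcl2l11 at 0.226 ± 0.226 CPM per kb in LT-HSC, each below the one before in both libraries. In ST-HSC, Bid (82.5 ± 67.1 CPM per kb), Bax (55.4 ± 30.7), Bad (52.6 ± 17.3) and Mcl1 (41.2 ± 1.17) led and overlapped as neighbours. Bcl2l1 stood at 24.0 ± 6.69, Bcl2l11 at 10.3 ± 1.09, Bcl2 at 6.99 ± 1.0 and Bcl2l2 at 0.320 ± 0.032 CPM per kb in ST-HSC, each below the one before in both libraries. Bcl2l11 thus ranked below Bcl2 and Bcl2l2 in both LT-HSC libraries and above them in both ST-HSC libraries. The lengths join the exons of all basic transcripts, and Bax has the shortest model (0.867 kb) and Bcl2 the longest (9.157 kb), so a level per kilobase depends on that annotation.

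A list of 10 further family genes had 8 with a row, of which 4 could be tested, 1 of them positive, with a median log2 fold change of -0.28. The BH3-only gene Bbc3, which encodes PUMA, a p53 target, was at 5.05 and 16.3 CPM in LT-HSC, against 2.39 CPM in ST-HSC 1 and at most 1 read in ST-HSC 2. Both LT-HSC libraries were above both ST-HSC libraries, with a log2 fold change of 2.47 ± 1.21 (SE; limma adjusted p = 0.812), the opposite sign to Bcl2l11. Bmf, another BH3-only gene, had 8 and 137 reads in LT-HSC, against 2 reads in ST-HSC 1 and at most 1 in ST-HSC 2, and was too low to be tested. Bok, an effector-like gene, had at most 1 read in LT-HSC 1 and 3.53 CPM in LT-HSC 2, against 9.97 and 13.3 CPM in ST-HSC (log2 fold change -2.56 ± 1.20 SE; limma adjusted p = 0.806). The BH3-only genes thus differed in sign among themselves, with Bbc3 positive and Bid, Bad and Bcl2l11 negative.

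The A1 genes Bcl2a1b and Bcl2a1c varied more between libraries of a group than between groups. Bcl2a1b was at 27.6 and 0.248 CPM in LT-HSC, against 1.73 and 19.6 CPM in ST-HSC. Bcl2a1c had 38 reads and at most 1 read in LT-HSC, against 3 and 52 reads in ST-HSC, with its high libraries the same as those of Bcl2a1b. These genes are near-identical copies, so reads may be split or shared between them. Bcl2l10, Bik and Hrk were at the lowest value in all 4 libraries.

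A promoter of Bcl2l11 is shown because the groups lay farthest apart for this member. FoxO transcription factors are known to switch on Bcl2l11 in blood cells that lose growth factor signals. RefSeq lists 12 start windows for 8 of the members on GRCm38.p6, each from 250 bases before to 50 after a start, and Pmaip1 was not matched. Of its 2 windows, the one at chr2:128125788-128126087 (+ strand) has the FoxO letters GTAAACA and the GC box letters GGGCGG in capitals.
Bcl2l11 promoter: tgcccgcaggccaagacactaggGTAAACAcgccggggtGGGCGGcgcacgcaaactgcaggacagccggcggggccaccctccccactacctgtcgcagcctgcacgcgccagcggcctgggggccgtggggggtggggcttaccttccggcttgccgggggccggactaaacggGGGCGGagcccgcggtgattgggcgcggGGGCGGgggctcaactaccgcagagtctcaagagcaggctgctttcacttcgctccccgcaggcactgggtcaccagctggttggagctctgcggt
Searched on both strands, the FoxO letters were found in 1 of the 12 windows, this one, but not in the other Bcl2l11 window, at chr2:128127325-128127624, and in 3.65% of 32851 mouse promoter windows of the same length. GC box letters were found in 8 of the 12 and in 35.7% of all windows. The Runx letters TGTGGT were found in 0 of the 12 (16.8% of all) and the E-box letters CACGTG in 1, that of Bax (7.15% of all). A match is a description of the letters only, and these data hold no measure of binding.

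FoxO genes were among the known regulators of the family. Foxo1 was at 62.0 and 51.9 CPM in LT-HSC, against 23.9 and 19.9 CPM in ST-HSC, with both LT-HSC libraries above both ST-HSC libraries (log2 fold change 1.34 ± 0.55 SE; limma adjusted p = 0.767). Foxo3 had overlapping groups, at 89.6 and 88.5 CPM in LT-HSC, against 116 and 56.7 CPM in ST-HSC. Chek2, a checkpoint kinase upstream of p53, was at 26.5 and 1.42 CPM in LT-HSC, against 58.8 and 77.0 CPM in ST-HSC (log2 fold change -3.06 ± 1.31 SE; limma adjusted p = 0.768). Akt1, a kinase that phosphorylates BAD, had a log2 fold change of -0.45 ± 0.42 (SE), which was -0.048 without LT-HSC 1. That of Chek2 was -1.31 without LT-HSC 2. Of the 11 tested regulators, none passed, 6 were positive, and the median log2 fold change was 0.071, with -0.048 to 0.085 when single libraries were left out.

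Downstream of the family, no list had a member that passed, in either direction. The apoptosome and mitochondrial release genes (9 tested, 2 positive) had a median of -0.079, with -0.24 to 0.014 when single libraries were left out. Aifm1, a flavoprotein of the mitochondrial inner membrane that is released in cell death, was at 48.6 and 20.1 CPM in LT-HSC, against 111 and 101 CPM in ST-HSC (log2 fold change -1.73 ± 0.56 SE; limma adjusted p = 0.744). Htra2, a released protease that antagonises caspase inhibitors, lay the other way, at 193 and 87.2 CPM in LT-HSC, against 61.8 and 64.0 CPM in ST-HSC. Vdac1, a channel of the outer membrane, was at 211 and 186 CPM in LT-HSC, against 267 and 272 CPM in ST-HSC.

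Of the 6 caspases tested, 4 were negative, with a median of -0.33, which turned positive when LT-HSC 1 (0.12) or ST-HSC 2 (0.11) was left out and was -1.11 when ST-HSC 1 and -0.78 when LT-HSC 2 was left out. The initiator Casp9 was at 7.19 and 12.3 CPM in LT-HSC, against 22.6 and 42.9 CPM in ST-HSC (log2 fold change -1.63 ± 0.85 SE; limma adjusted p = 0.815). The death receptor caspase gene Casp8 also lay below in both LT-HSC libraries, with a log2 fold change of -0.63 ± 0.37 (SE). Both LT-HSC libraries lay below both ST-HSC libraries for 3 of the 6 caspases, against 17.5% of all genes. Caspase inhibitors (5 tested, 3 positive) had a median of 0.32, with Birc2 at 0.39 ± 0.39, Cflar at -0.22 ± 0.26 and Birc6 at 0.32 ± 0.50 (SE). That median was -0.087 without LT-HSC 2, -0.044 without ST-HSC 1 and 0.031 without ST-HSC 2.

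Death receptor genes (6 tested, 2 positive) had a median of -0.54, which was -0.22 without LT-HSC 2 and -0.044 with at least 1 CPM required in all 4 libraries. Fas was at 0.841 and 1.24 CPM in LT-HSC, against 3.59 and 26.5 CPM in ST-HSC, while Tnfrsf10b, the mouse receptor for TRAIL, was at 3.82 and 15.6 CPM in LT-HSC, against 2.59 and 1.15 CPM in ST-HSC. Tnfrsf1a, a receptor for TNF, had overlapping groups (log2 fold change -0.72 ± 0.67 SE). Bcl2-related genes of other kinds (9 tested, 5 positive) had a median of 0.078, which was negative without any 1 of the 4 libraries (-0.080 to -0.0070), with Bcl2l13 at -1.29 ± 0.96, Bcl2l14 at -1.75 ± 1.49 and Bnip3 at 0.49 ± 0.47 (SE).

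**Figure D4:**
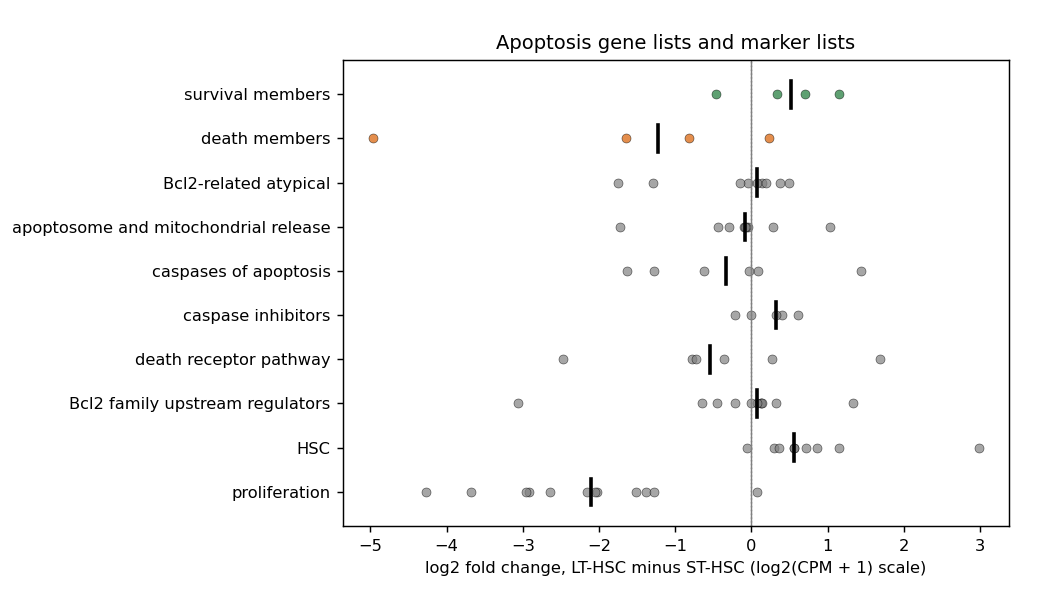
Log2 fold change, LT-HSC minus ST-HSC, of each tested gene (points) by list, with the list median as a black bar and the median of all tested genes as a dotted line near 0. Among the members the lowest point is Bcl2l11 at -4.96. Of the 12 proliferation markers 11 lie below 0, as do 6407 of all 12608 tested genes.

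Markers of proliferation lay on the same side as Bcl2l11, lower in LT-HSC, and markers of committed blood cells differed among lists. The 12 proliferation markers summed to 636 and 581 CPM in LT-HSC, against 1472 and 1888 CPM in ST-HSC. Of the 12, 10 lay below in both LT-HSC libraries, where 17.5% of all tested genes lay below and 16.1% above. Of 8 erythroid markers with a row, 4 of the 7 tested lay below in both LT-HSC libraries, 1 (Epor, at 50.8 and 26.6 CPM in LT-HSC, against 7.44 and 21.2 CPM in ST-HSC) lay above and 2 overlapped. Their sums were 291 and 206 CPM in LT-HSC, against 355 and 321 CPM in ST-HSC. The 6 megakaryocyte markers summed to 114 and 81.7 CPM in LT-HSC, against 258 and 193 CPM in ST-HSC. Most of the ST-HSC sums came from Itga2b, at 2.52 and 5.07 CPM in LT-HSC, against 152 and 105 CPM in ST-HSC. Gp5 and Ppbp had overlapping groups. The 7 granulocyte markers summed to 52.8 and 52.0 CPM in LT-HSC, against 313 and 56.1 CPM in ST-HSC. T cell markers summed to 2.29 and 7.24 CPM in LT-HSC, against 18.9 and 10.4 CPM in ST-HSC, in ST-HSC almost all of it from Cd4. The monocyte sums overlapped, at 215 and 209 CPM in LT-HSC, against 204 and 229 CPM in ST-HSC. The B cell sums overlapped as well, at 219 and 130 CPM in LT-HSC, against 145 and 105 CPM in ST-HSC, mostly from Cd79b. The sums of endothelial markers, which HSCs share in part, went the other way, with 548 and 693 CPM in LT-HSC, against 262 and 209 CPM in ST-HSC. Most of the LT-HSC sums came from Vwf. Kdr and Emcn also lay above in both LT-HSC libraries, while Cdh5 and Tek had overlapping groups. The part of these genes in the Bcl2l11 difference was not tested, and in bulk libraries fewer cells of a type and less RNA per cell cannot be told apart.

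The genes whose pattern over the 4 libraries was most like a member's were found by the root mean square difference of centred log2(CPM + 1) profiles, among 7250 genes with a mean of at least 5. For Bcl2l11 they were Galnt6 (0.832), Atad5 (1.04) and D2Ertd750e (1.05). Bcl2l11 itself has a mean below 5, so genes with levels as low as its own were not among the candidates. Galnt6, a glycosyltransferase gene, was at 11.5 and 33.7 CPM in LT-HSC, against 282 and 159 CPM in ST-HSC. Atad5, which acts in unloading the replication clamp, was at 8.18 and 26.3 CPM in LT-HSC, against 114 and 122 CPM in ST-HSC. For Bcl2l1, the member with the smallest p among those with a positive fold change, they were Itch (0.077), Alkbh4 (0.095) and 2810432L12Rik (0.097). Itch, a ubiquitin ligase gene, was at 137 and 270 CPM in LT-HSC, against 110 and 150 CPM in ST-HSC. With 4 libraries, many genes can share a pattern.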

How the data were processed

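Gene levels were measured in 2 LT-HSC and 2 ST-HSC libraries, grouped by their labels. The submitters' processing notes list TopHat (version not listed) and mm9. How reads were counted and filtered, and on which annotation, is not given in the sources used here. Per the file contents, the authors deposited log2 values computed from reads scaled by the library total (CPM). All values standing for 2 to 100 reads (2658 to 4201 per library) lay within 0.1 of a whole number of reads. With the lowest value taken as 0 reads raised to 1, the reads fell short of the library totals by 578 and 439 in the LT-HSC and 288 and 368 in the ST-HSC libraries, beside 399, 301, 215 and 224 genes at 2 reads. Had 1 read been added to every gene, the shortfalls would be 15126, 13780, 13606 and 13643 reads. The first reading was used, genes at the lowest value were entered as 0 CPM, and the other reading was tried. A floor of 3 reads is 0.186 to 0.229 CPM. Reads of amplified cDNA are not independent molecules, so counts and the floor reflect counting error only.

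The 12608 genes that reached 1 CPM in 2 or more libraries were tested on log2(CPM + 1) with limma 3.58.1 in R 4.3.3 (trend, robust shrinkage with statmod 1.5.0). The code was first run on simulated reads with large planted changes and a fixed spread that was not estimated from these libraries. That check therefore does not show how the test performs on these data. The test planned for raw counts was not used, because the values are normalized. P-values were adjusted over all tested genes with a limit of 0.05. For low genes the added 1 CPM makes fold changes too small.

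The members and lists were chosen with earlier results of these data known. Named are the 10 members, every gene of the further family lists, up to 3 genes per other list with the smallest p, and the 3 genes most like the leading member in each direction. A few genes that this rule names are not reported here. Foxo3, Cd48, the single cell markers and the genes of the closing observations were chosen after their values were seen. Alternatives were other scaling, filters, added value, tool and shrinkage, a block for the replicate number, each library left out in turn, and leaving out each member of the balance.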

Additional observations from a re-analysis of the deposited data

How the results depend on the processing

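No setting gave a gene past the adjusted threshold, and none of the 8 tested members crossed it in 103 refits over 13 alternatives, of which 99 kept the sign. Bcl2l11 kept its sign in the 12 alternatives in which it could be tested, from -6.00 on the deposited values to -4.30 without LT-HSC 1, with adjusted p from 0.556 to 1.0. With at least 1 CPM required in all 4 libraries it was not tested. With single libraries left out, log2 fold changes that kept their sign but moved by over 1.5 times ranged from -3.28 to -0.0061 for Bid, 0.19 to 1.21 for Bcl2l1, 0.70 to 1.59 for Bcl2l2, 1.59 to 3.35 for Bbc3, -3.65 to -1.47 for Bok, -2.20 to -0.37 for Bcl2l13, -3.23 to -0.26 for Bcl2l14, 0.018 to 0.97 for Bnip3, -2.35 to -1.11 for Aifm1, 0.47 to 1.60 for Htra2, -0.91 to -0.35 for Casp8, 0.13 to 0.66 for Birc2, -0.34 to -0.087 for Cflar, -3.76 to -1.18 for Fas, 0.80 to 2.58 for Tnfrsf10b, -4.82 to -1.31 for Chek2 and -0.84 to -0.048 for Akt1. The sign of other genes turned with single libraries left out, with log2 fold changes from -1.44 to 0.51 for Bcl2, -0.36 to 0.81 for Bax, -1.77 to 0.14 for Bad, -2.59 to 1.93 for Bcl2a1b, -1.22 to 0.75 for Bcl2a1c, -0.27 to 0.91 for Birc6 and -1.63 to 0.18 for Tnfrsf1a. Genes at an unadjusted p under 0.05 numbered 406 without ST-HSC 2, 526 without ST-HSC 1 and up to 1098 without LT-HSC 2, and 536 with at least 1 CPM in all 4 libraries. The balance difference of 1.76 was 0.86 without Bcl2l11, 2.23 without Pmaip1, and 1.34 to 2.19 with single libraries left out. With at least 1 CPM in all 4 libraries it was 1.18. That filter removes Bcl2l11 and Pmaip1, so this is the version without both given above, not a further alternative. The median of the death members was -0.82 with no filter and with the filter in all 4 libraries, which change the genes tested, and -1.87 to -0.59 with single libraries left out. The replicate number as a block gave 0 genes past the threshold and 887 unadjusted. The numbers were not taken as pairs because nothing in the labels ties them to a shared animal or day. Deviations of same-numbered libraries correlated at 0.051 over genes, a value over all genes that cannot settle pairing for single genes. The reading with 1 read added to every gene was chosen after the data were seen, and under it 814 genes passed unadjusted and Bcl2l11 stood at -5.01. The cause of these shifts was not tested. With 2 libraries a group, small differences such as that of Mcl1 cannot be resolved.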

Other observations

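A pair of apoptosis genes had a low level in ST-HSC 1, and these were picked after their values were seen. The executioner caspase gene Casp6 was at 101 and 112 CPM in LT-HSC, against 12.2 and 118 CPM in ST-HSC 1 and 2. Birc3, a caspase inhibitor gene, was at 39.2 and 97.7 CPM in LT-HSC, against 16.1 and 98.5 CPM in ST-HSC. For Birc3 both libraries numbered 1 were below both numbered 2, and for both genes ST-HSC 1 held the lowest level of the 4 libraries. The summed HSC markers were at 2952 CPM in ST-HSC 1 and 3201 CPM in ST-HSC 2. The summed granulocyte markers were at 52.8 and 52.0 CPM in LT-HSC, against 313 CPM in ST-HSC 1 and 56.1 CPM in ST-HSC 2, with Ngp at 102 CPM and Camp at 61.9 CPM in ST-HSC 1. Their part in these levels was not tested.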
